A study of Homo sapiens with 8 samples.

Results

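The mRNAs described here encode proteins of the translation machinery and belong to the TOP class, named for a terminal oligopyrimidine tract at the 5′ end. They come from 9 genes: RPLP0, RPLP1 and RPLP2, which form the P stalk of the large ribosomal subunit, RPS2, RPL3, RPL4, the elongation factor genes EEF1A1 and EEF2, and GNB2L1 (now RACK1), a scaffold protein bound to the small subunit. Members were chosen by position: the deposited eCLIP peaks of TIA1 or RBFOX2 that overlapped the hg19 span of one of these genes, given to the kb, on the gene's strand. They come from lists selected on fold and −log10 p by the authors, whose lowest values are a log2 fold of 3.0 and a −log10 p of 3.01 in each list, so a value above these limits is no finding. Of 7442 peaks in both lists, 16 met this rule: 14 of 3215 TIA1 peaks and 2 of 4227 RBFOX2 peaks. All 16 lay in RPLP1 or RPLP2, and 7 of the 9 spans held none.

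The study used eCLIP: ultraviolet light fixes a protein to the RNA it touches, the protein is pulled down with an antibody, and the RNA that comes with it is sequenced beside an input without the pull-down. There were 8 libraries from HEK293T, an immortalised human embryonic kidney line: 2 clip and 2 input libraries for TIA1, and the same for RBFOX2. All came from cells crosslinked with 600 mJ, and the clip libraries of both proteins were made with an antibody to the HA tag, whose construct the labels do not describe. A protocol text shared by the 8 libraries speaks instead of beads carrying TIA1, which the labels leave unresolved. One peak list per protein joins both replicates, so no value carries an error between replicates, the depth is unknown, and no difference here was tested. Every fold and −log10 p is the authors' value for a peak, with fold read as clip over input.

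TOP mRNAs begin with a cytosine followed by a run of pyrimidines. The tract lets the cell switch translation of the whole class on or off with nutrient supply through mTOR and the cap-binding protein LARP1. TIA1, a protein that prefers U-rich RNA and gathers in stress granules, and its relative TIAR are known to associate with TOP mRNAs when amino acids are scarce. RBFOX2 is a splicing regulator that binds GCAUG.

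The annotated first bases of these genes were searched for such a tract. RefSeq start sequences were found for 8 of the 9 genes and not for RPS2. Each line gives the last 6 bases before the annotated start and the first 24 from it, 5′ to 3′. Capitals mark a C with at least 4 pyrimidines after it, taken at the annotated start or, failing that, at the nearest position within 5 bases of it. These windows are in GRCh38.p14 and were not set against the hg19 positions of the peaks.
RPLP0 (GRCh38.p14, chr12:120201088-120201117, minus strand): cgaggcCCTTCTCTCgccaggcgtcctcgt
RPLP1 (GRCh38.p14, chr15:69452812-69452841, plus strand): cgagagCCCCTTTCCTCagctgccgccaag
RPLP2 (GRCh38.p14, chr11:809961-809990, plus strand): cgccttCCTTTTCCTCCCTgtcgccaccga
RPL3 (GRCh38.p14, chr22:39319600-39319629, minus strand): accggCCTCTaccggcgggatttgatggcg
RPL4 (GRCh38.p14, chr15:66504832-66504861, minus strand): agtggtaagcaCTTCCTTTTCCTgtggcag
EEF1A1 (GRCh38.p14, chr6:73521009-73521038, minus strand): aacgttCTTTTTCgcaacgggtttgccgcc
EEF2 (GRCh38.p14, chr19:3985440-3985469, minus strand): agcgttCTCTTCCgccgtcgtcgccgccat
GNB2L1 (GRCh38.p14, chr5:181243883-181243912, minus strand): ttctctCTCTCTTTCactgcaaggcggcgg

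In 6 of the 8 the marked tract was taken at the annotated start. The search tried that position first, and of these genes only RPLP1 has no pyrimidine just before it. In RPL3 the marked tract began 1 base before the start, and in RPL4 it began 5 bases after it. Counted from the marked C, the tract was longest in RPLP2, with 13 pyrimidines, followed by RPL4 with 12 and RPLP1 with 11. RPLP0 and GNB2L1 had 9, EEF1A1 and EEF2 had 7, and RPL3 had 5. Among 15843 promoters of protein-coding genes of the same length, 4.60% had such a tract at the start and 22.1% had one within 5 bases. A list of 87 other genes held ribosomal proteins, translation factors and genes such as TPT1, NPM1, HNRNPA1 and NAP1L1. Of these 87, 67 had a start sequence, and 46 of the 67 (68.7%) had the tract at the start. The list and the members were both drawn up as TOP mRNA genes. Neither this share nor the 6 of 8 is therefore independent support. The peaks of those other genes were not analysed here, since no hg19 gene positions were at hand.

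Peaks were unevenly spread over the 9 genes. TIA1 had 9 peaks in RPLP2 and 5 in RPLP1, and RBFOX2 had 2 in RPLP1. RPLP0, the protein that anchors the P stalk, had none in either list, nor did RPS2, RPL3, RPL4, EEF1A1, EEF2 or GNB2L1. No peak of either list lay on the opposite strand of any span (0 of 9 spans).

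**Figure D1:**
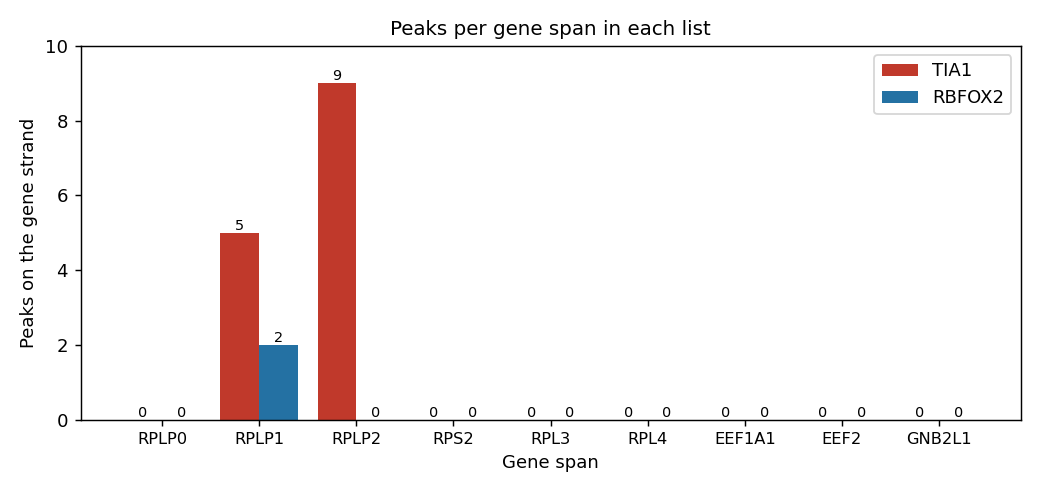
Number of deposited peaks on the gene's strand in each of the 9 gene spans (horizontal axis), for TIA1 (red) and RBFOX2 (blue). RPLP2 has 9 TIA1 peaks, RPLP1 has 5 TIA1 and 2 RBFOX2 peaks, and the other 7 spans have 0.

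RPLP2 encodes one of the paired acidic proteins of the stalk, the part of the large subunit that meets the elongation factors. Its 9 TIA1 peaks lay on the plus strand of chromosome 11 (span 809000 to 813000) and formed 3 sites once peaks within 50 bases were joined. The first site ran from 809970 to 810041 in 3 abutting peaks. Their log2 folds were 3.66 (809970 to 810022), 3.65 (810023 to 810032) and 3.64 (810033 to 810041), each with a −log10 p of 400. The first of these is a 12.6-fold excess of clip over input and was the highest fold in RPLP2. The fold was thus nearly level across the site.

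The second RPLP2 site began 192 bases further on and ran from 810234 to 810289 in 5 abutting peaks. The first 4 were 2, 2, 4 and 38 bases wide, all had a −log10 p of 400, and their log2 folds were 3.53, 3.53, 3.55 and 3.48. The fifth (810280 to 810289) was lower, with log2 fold 3.001 and −log10 p 78.3. The second site was therefore slightly lower in fold than the first, and its last 10 bases sat at the lower limit of the list.

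The third RPLP2 site was a single peak of 11 bases at 812586 to 812596, which began 2296 bases past the end of the second. It had a log2 fold of 3.02 and a −log10 p of 22.7, the lowest −log10 p among the 14 TIA1 peaks. From first to last base the RPLP2 peaks ran over 2627 bases. RefSeq gives the gene a length of 2910 bases in GRCh38.

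RPLP1 encodes the partner of RPLP2 in the stalk. Its 5 TIA1 peaks lay on the plus strand of chromosome 15 (span 69745000 to 69749000) and formed 2 sites. The first site ran from 69745228 to 69745359 in 3 abutting peaks, all with a −log10 p of 400. Its first peak, of 48 bases, had a log2 fold of 3.46, the next, of 20 bases at 69745276 to 69745295, had 4.10, and the last, of 64 bases, had 3.73. The middle peak stood at 17.2-fold and was the only one of the 14 TIA1 peaks to reach 4 on the log2 scale. Unlike the first site of RPLP2, this site had a fold that rose and fell along its length.

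The other RPLP1 site began 2157 bases downstream and ran from 69747517 to 69747617. Its first peak, of 89 bases, had a log2 fold of 3.23 and a −log10 p of 48.2. Its second, of 12 bases, had a log2 fold of 3.18 and a −log10 p of 32.6. Both values were under those of every peak in the first RPLP1 site. The RPLP1 peaks ran over 2390 bases, and RefSeq gives the gene a length of 3388 bases in GRCh38.

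**Figure D2:**
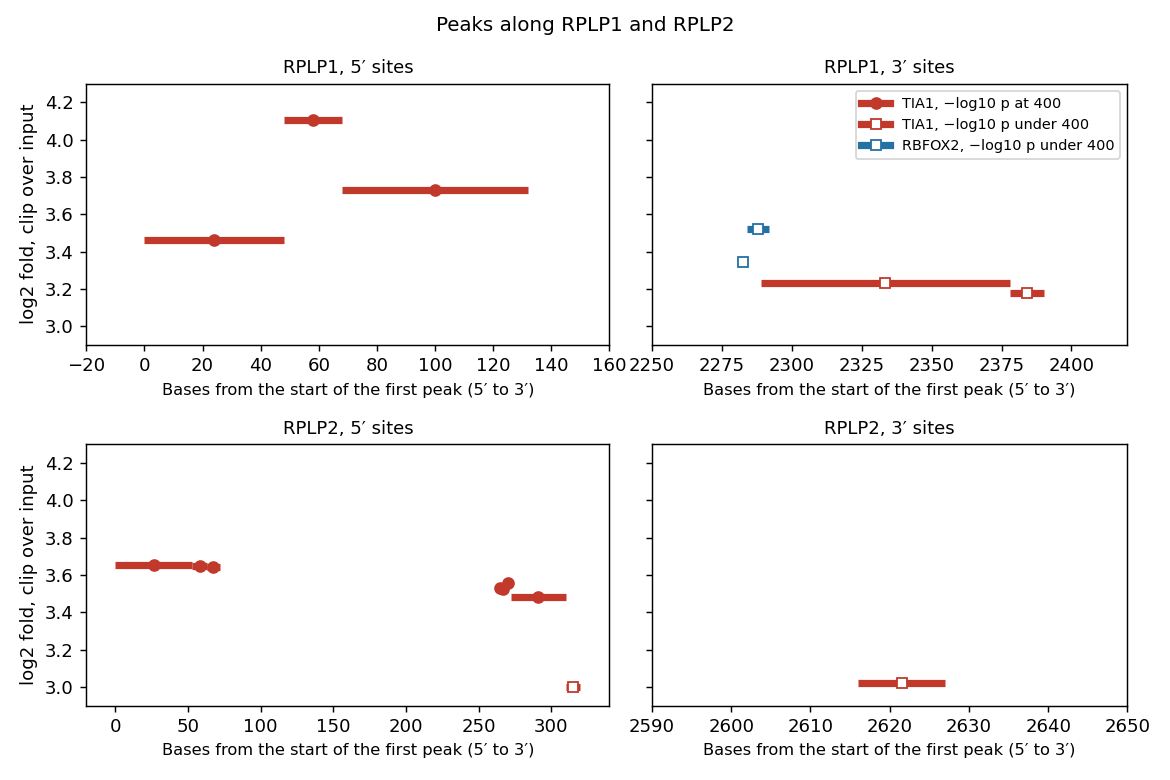
Peaks along RPLP1 (top) and RPLP2 (bottom), as distance in bases from the first base of the gene's first peak in the direction of transcription (horizontal axis, with a different scale in each panel) against log2 fold of clip over input (vertical axis). Bars span each peak, filled circles mark a −log10 p of 400 and open squares a lower one; in both genes the 10 peaks at 400 lie in the first 310 bases, and the peaks over 2 kb downstream have log2 folds of 3.02 to 3.23 for TIA1.

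In both RPLP1 and RPLP2 the highest TIA1 fold lay in the first site, and a 3′ site of lower −log10 p followed over 2 kb away. In RPLP1 every fold of the 3′ site was under those of the first site. In RPLP2 the fold of the 3′ site (3.02) was under those of the 7 peaks at 400, but the lowest fold (3.001) was that of the last peak of the second site. For the list as a whole, peaks were chained into runs where the gap to the next on the strand was at most 3 kb. Of 38 TIA1 runs of at least 5 peaks over 1 kb or more, 17 (44.7%) had their highest fold nearer the 5′ end. The RPLP1 and RPLP2 runs are both among these 17. RPLP2 was among the richest runs: 14 of 1997 TIA1 runs (0.701%) held 9 peaks or more. At least 5 peaks, the number in RPLP1, were held by 76 runs (3.81%).

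Peak number also depends on how a site was split. Of the 14 TIA1 peaks, 9 (64.3%) began at the base after a neighbour's end, against 662 of 3215 (20.6%) in the whole list. The 14 peaks had a median width of 11.5 bases (range 2 to 89), against 61 bases in the list. There were 6 peaks of 10 bases or fewer among them, all in RPLP2, against 11.1% of the list. Counted as joined sites, the genes held 5 of 2413 TIA1 sites. Together the 14 peaks covered 372 bases, 233 in RPLP1 and 139 in RPLP2.

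The TIA1 peaks of these genes stood out by −log10 p more than by fold. A −log10 p of 400 was reached by 10 of the 14, 7 in RPLP2 and 3 in RPLP1, against a background of 2.02% of all TIA1 peaks. The members were picked with the lists known, so these counts are a description. These 10 made up 15.4% of the 65 TIA1 peaks at 400, and as joined sites they were 3 of 20. Counted by joined site, 3 of 5 member sites reached 400, against 20 of 2413 TIA1 sites in all. The value 400 was the highest in the TIA1 list, and the next below it was 86.8. With nothing between, 400 was read as a value set by the processing, and how it was set is not known. The 10 peaks cannot be ranked among themselves by it, and 400 is not a measured size. The 4 other TIA1 peaks had a −log10 p from 22.7 to 78.3, and even the lowest exceeded 90.0% of the list.

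By fold the same peaks were moderate. The median log2 fold of the 14 was 3.53 (range 3.001 to 4.10), against 3.36 over all TIA1 peaks. On the log2 scale 1 of the 14 (7.14%) reached 4, against a background of 9.21%, a share near that of the list. The middle peak of the first RPLP1 site exceeded 92.8% of the list in fold, and the first peak of RPLP2 exceeded 77.0%. Among peaks at 400, the 10 members had a median log2 fold of 3.60, against 3.86 in the other 55, and 21 of those 55 were above every member. In the fold range of the 10 members (3.46 to 4.10) the list held 1030 peaks with a median −log10 p of 8.02, and 30 of them (2.91%) were at 400, the 10 members included. RNA abundance and read depth, on which a −log10 p also depends, are not in the lists, and their part was not tested.

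**Figure D3:**
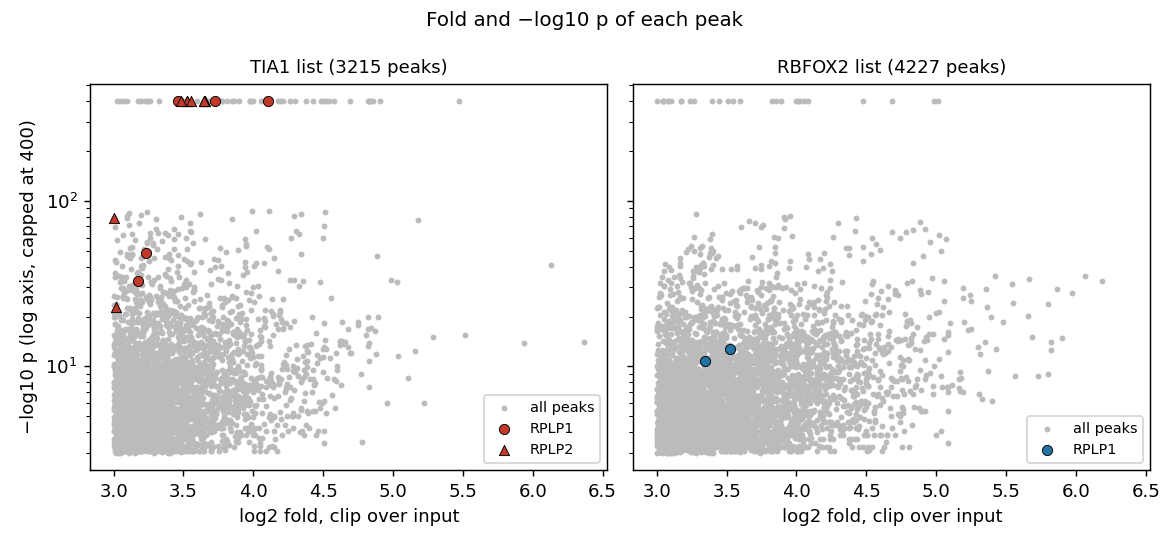
Log2 fold of clip over input (horizontal axis) against −log10 p (vertical axis, log scale, highest value 400) for every peak of the TIA1 list (left) and the RBFOX2 list (right), with RPLP1 as coloured circles and RPLP2 as coloured triangles. The TIA1 members are at 400 in 10 of 14 cases with log2 folds from 3.46 to 4.10, and the 2 RBFOX2 members lie within the cloud of their list.

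**Figure D4:**
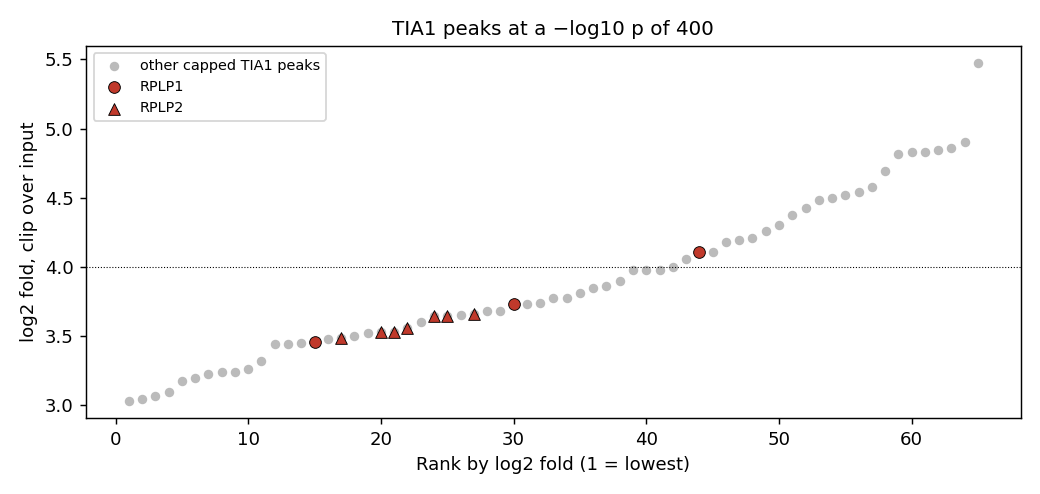
The 65 TIA1 peaks at a −log10 p of 400, ordered by log2 fold of clip over input (vertical axis; dotted line at 4), with rank on the horizontal axis. The RPLP1 peaks (circles) and RPLP2 peaks (triangles) lie between 3.46 and 4.10, with 14 other peaks under all of them and 21 above.

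RBFOX2 binding was listed for RPLP1 only. Its 2 peaks abutted. The first covered 3 bases (69747509 to 69747511), with log2 fold 3.35 and −log10 p 10.8, and the second 8 bases (69747512 to 69747519), with log2 fold 3.52 and −log10 p 12.7. Their folds exceeded 38.0% and 52.7% of the RBFOX2 list, whose median log2 fold was 3.48, so they were ordinary in fold. Their −log10 p exceeded 73.8% and 80.1% of the list. Neither was at 400 (0 of 2, background 0.686%) and neither reached 4 in log2 fold (0 of 2, background 19.3%).

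The RBFOX2 site met the weaker TIA1 site of RPLP1 and not the stronger one. It shared 3 bases with it, 69747517 to 69747519, at the upstream edge of the TIA1 peak of 89 bases. The first TIA1 site of RPLP1 ended 2149 bases before the RBFOX2 site, and RPLP2 held no RBFOX2 peak. In all, 1 of 14 TIA1 peaks (7.14%, 95% Clopper-Pearson interval 0.181 to 33.9%) overlapped an RBFOX2 peak, against a background of 24.0% of TIA1 peaks. In the other direction 1 of 2 RBFOX2 peaks overlapped, against a background of 21.7%. The intervals cover counting error only, and peaks of one RNA are not independent. None of the 10 TIA1 peaks at 400 in these genes overlapped an RBFOX2 peak (0 of 10), against 23 of all 65 at 400. These 10 are parts of only 3 joined sites. With peaks within 50 bases joined, 20.0% of the 5 TIA1 sites overlapped an RBFOX2 site. The share over all joined sites was not counted.

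For the 7 genes with no peak, the nearest TIA1 peak on the strand was a median of 212 kb outside the span. No distance was taken over other genes, so these values have no background and are a description. RPLP0 was the nearest case, with a TIA1 peak on chromosome 12 at 120621375 to 120621390 (log2 fold 3.32, −log10 p 5.51) that lay 12.6 kb outside its span. For RPS2, a small-subunit protein, the nearest TIA1 peak on the strand was 44.6 kb away, although peaks of both lists lay 2.35 kb away on the other strand. For EEF2, which moves the ribosome along the mRNA, the nearest TIA1 peak was 138 kb away, and for RPL3, a core protein of the large subunit, it was 212 kb away. GNB2L1 had its nearest TIA1 peak at 617 kb. EEF1A1, which brings aminoacyl-tRNA to the ribosome, had its nearest peak of each list 1730 kb away, and the nearest TIA1 peak to RPL4 was 2335 kb away. In the RBFOX2 list the nearest peak on the strand was between 126 kb (RPS2) and 1730 kb (EEF1A1) away for these 7 genes.

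The genes that did have peaks were set against the edges of their spans. In RPLP1 the first peak began 228 bases inside the span (log2 fold 3.46), and the nearest peak outside on the strand was over 1174 kb away in both lists. In RPLP2 the last peak ended 404 bases inside the span (log2 fold 3.02), and the nearest TIA1 peak outside, at 819586 to 819658, lay 6.59 kb beyond it with a log2 fold of 3.16. The nearest RBFOX2 peak to the RPLP2 span was 23.1 kb away, with a log2 fold of 3.05. A gene without a peak did not pass the authors' limits of fold and −log10 p in these lists, which does not show that it was unbound.

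Processed copies of these genes elsewhere in the genome can share reads with them, and no source used here says how the authors treated such reads. GENCODE release 29 names 4 pseudogenes of RPLP1 and 1 of RPLP2. Among the genes without a peak, EEF1A1 has 39, RPS2 20, RPL3 13, RPL4 6 and RPLP0 5, while EEF2 and GNB2L1 have 0. The counts go by name and include pseudogenes of any type, processed or not. The part of shared reads in the counts was not tested.

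The spliced mRNAs were searched for the letters that each protein is known to prefer, on the sense strand and without introns. The principal RPLP1 transcript of GENCODE (1197 bases) held no GCATG (0 matches), although it is the gene with RBFOX2 peaks, and 62.7% of principal mRNAs within 20% of its length hold one. It held TTTTT at 5 positions, 3 of them overlapping in one run of T near its 3′ end, and 63.1% of mRNAs of like length hold TTTTT. The RPLP2 transcript (781 bases) held GCATG 1 time, beginning at its base 2, and TTTTT 2 times, against 48.2% and 45.2% of mRNAs of like length with a match. This transcript does not begin with the RefSeq start sequence printed above, which holds no GCATG in its first 24 bases. It covers 3229 genomic bases, against 2910 for the RefSeq gene. How far its start lies from the RefSeq start was not read. T made up 26.6% of the RPLP1 mRNA and 20.9% of the RPLP2 mRNA, against medians of 23.6% and 22.5% at like length. Among the 7 genes without a peak, T made up between 18.5% (EEF2) and 25.7% (RPL4). The RPLP2 value lay inside this range and the RPLP1 value above it. The bases under the peaks themselves were not read, for want of an hg19 genome, and introns were not searched.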

How the data were processed

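eCLIP peaks of TIA1 and RBFOX2 in HEK293T were analysed, 1 list per protein, each tied by the sample descriptions to 2 clip and 2 input libraries. The submitters' processing notes name UMI-tools 1.0.0, cutadapt 1.14, STAR 2.4.0i, SAMtools 1.6 and hg19; no source used here names the peak caller. The deposited −log10 p-value (highest value 400) and the deposited log2 fold have no header, and their units were inferred from their ranges. The lists hold no read counts, so depth is unknown. The replicates are biological in the extract protocol and technical in the design text. Members and lists were chosen with earlier results of these data known. All 9 genes were named; peaks were described by site. Positions are 1-based hg19, and overlap means at least 1 shared base on the same strand. GRCh38 annotation was used by symbol only, for start sequences, lengths, transcripts and pseudogenes (names of the form symbol, P, number). Python 3.11.15, pandas 2.3.3, numpy 2.4.6 and scipy 1.17.1 were used. No tests were run. Counting of overlaps, joins and span edges was tested on simulated data. Alternatives were stricter fold or −log10 p limits, joined peaks, wider spans, leaving out the richest gene and other overlap rules.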

Additional observations from a re-analysis of the deposited data

How the results depend on the processing

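Of 60 values recomputed under alternatives, 42 stayed within 1.5 times (counts) or within the 95% binomial interval (medians and shares), and 18 moved. For the medians of the 2 RBFOX2 peaks that interval is only the range of the peaks, and its coverage is under 95%. With a log2 fold of at least 4, 1 TIA1 peak in 1 gene remained (median log2 fold 4.10, 0% overlapping RBFOX2) and RBFOX2 had 0 peaks in 0 genes. With peaks within 50 bases joined there were 5 TIA1 sites and 1 RBFOX2 site, and 100% of the RBFOX2 sites overlapped. The share of TIA1 sites that overlapped was then 20.0%, within its interval. Leaving out the gene with most peaks of each list left 5 TIA1 peaks in 1 gene (without RPLP2) and 0 RBFOX2 peaks in 0 genes (without RPLP1). With at least 50% of the peak, or of both peaks, required to overlap, 0% of TIA1 and 0% of RBFOX2 members overlapped. With peaks within 50 bases counted as overlapping, 100% of RBFOX2 members did. These shifts follow from fewer or joined peaks and from the overlap rule itself. A −log10 p limit of 5, a full last kb and spans widened by 1 kb changed no value, and could not have. The lowest member −log10 p was 10.8, and the nearest peak outside a span on the strand lay 6.59 kb away. The values of these settings are counted in the 42, so the 42 are no measure of stability. No paired analysis was possible because the deposited lists merge the replicates, which also prevents leaving one out. The counts rest on few peaks, and a −log10 p of 400 gives no rank among the peaks that hold it.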
